A study of Arabidopsis thaliana with 18 samples.

Results

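LEA4-5 (AT5G06760) and AT3G02480 are 2 genes of the late embryogenesis abundant (LEA) family of Arabidopsis thaliana, measured here in sorted root hair cells. They were taken as the single-gene probe sets carrying those names, 2 of 13356 genes that have a probe set of their own. The array has 13513 such single-gene probe sets, among 22746 without its controls. The genes were chosen by their log2 differences between the line overexpressing DF1 and wild type or the double mutant, with earlier results of the same arrays in view, so every comparison that holds the overexpression line of DF1 is given below as a description without a test.

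LEA proteins are very hydrophilic and mostly unfolded in solution. They build up in maturing seeds as these dry out, and in vegetative tissue under water deficit, cold, salt or the stress hormone abscisic acid (ABA), and they help to keep enzymes and membranes intact when water is lost. LEA4-5 belongs to the group 4 LEA proteins, which are known to contribute to the tolerance of Arabidopsis plants to water deficit, whereas AT3G02480 is annotated only as a LEA family protein. GTL1 and DF1 are trihelix transcription factors, a plant class of DNA-binding proteins, and both are known to restrain the growth of root hairs.

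The study used Affymetrix ATH1 arrays, with 3 biological replicates of each of 6 genotypes in the Col-0 background, 18 arrays in all. Roots came from 5-day-old seedlings, their cell walls were digested, and protoplasts with green fluorescence were sorted. DF1ox carried DF1-GFP and GTL1ox carried GTL1-GFP, each driven by the promoter of the expansin gene EXPA7, which is active in root hair cells. The gtl1-1 mutant (gtl1), the df1-1 mutant (df1) and the double mutant (gtl1df1) are T-DNA insertion lines. These 3 mutants and wild type (WT) carried nuclear GFP under the same EXPA7 promoter, so the gated cells were marked by a nuclear reporter in 4 genotypes and by the overexpressed fusion protein in the other 2. A sorted sample is a bulk of many cells, in which fewer cells of a type and less RNA per cell cannot be told apart.

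DF1 itself, the check of these lines, was at 14.21 ± 0.11 in DF1ox, 5.25 ± 0.37 in GTL1ox, 8.57 ± 0.23 in gtl1, 3.45 ± 0.25 in df1 and 4.15 ± 0.82 in gtl1df1, against 7.35 ± 0.19 in WT (log2 expression, mean ± SD, n = 3). The root hair expansin EXPA7 lay between 12.90 and 13.27 in all 6 genotype means, high as the label of the cells states, though its promoter also marked the cells for sorting. GTL1 was not analysed here, so the lines were not checked for GTL1. The spiked-in controls differed between genotypes. The BioB control was between 7.06 and 8.13 on the 9 arrays of the gtl1, df1 and gtl1df1 mutants, and between 2.49 and 2.99 on the 9 arrays of DF1ox, GTL1ox and WT, and nothing in the labels names what divided them. This BioB split and the genotype cannot be told apart when a mutant is compared with WT or with an overexpression line. The BioC control also differed within each side of that split: it was 7.32 to 7.64 in DF1ox and 6.31 to 6.35 in GTL1ox, against 6.37 to 6.74 in WT, and 9.23 to 9.43 in df1, against 8.63 to 9.09 in gtl1 and 8.31 to 8.67 in gtl1df1. BioB also lay higher in df1 (7.86 to 8.13) than in gtl1 (7.29 to 7.82) and gtl1df1 (7.06 to 7.32). The part of these control levels in the results was not tested. The 3′ minus 5′ difference of the r2 control probe sets was 0.965 to 1.17 on the df1 arrays and 0.441 to 0.859 on the other 15, while on the first trio of such control probe sets df1 gave 3.32 to 3.42 and the others 2.95 to 3.56. All values below are gcRMA log2 expression, in which 1 unit is a doubling and 2.22 is the lowest value that occurs.

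LEA4-5 was high in both overexpression lines and in df1, and low in the other 3 genotypes. Its DF1ox arrays read 10.18, 10.17 and 10.64. The GTL1ox arrays read 9.42, 8.40 and 9.40. The df1 arrays read 9.35, 9.74 and 9.22. These 9 arrays all lay above every array of the remaining genotypes. Those were 7.55, 6.37 and 7.22 in gtl1, 6.11, 6.51 and 5.82 in gtl1df1, and 7.71, 7.24 and 6.99 in WT. By genotype mean the order was DF1ox (10.33 ± 0.27), df1 (9.44 ± 0.27), GTL1ox (9.07 ± 0.59), WT (7.31 ± 0.36), gtl1 (7.05 ± 0.61) and gtl1df1 (6.15 ± 0.35; SD, n = 3 each). Among neighbours in this order, the arrays of df1 and GTL1ox overlapped, as did those of WT and gtl1 and those of gtl1 and gtl1df1. In DF1ox the LEA4-5 mean was brighter than 94.1% of all probe set means, and in WT it was brighter than 76.9%.

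AT3G02480 divided the genotypes in the same way, with GTL1ox and not DF1ox at the top. Its GTL1ox arrays read 10.97, 9.93 and 10.89. The df1 arrays read 9.81, 9.86 and 8.48, and the DF1ox arrays 9.23, 9.17 and 9.08. Again these 9 arrays all lay above the rest. The arrays of gtl1 read 7.21, 5.20 and 6.40, those of gtl1df1 6.97, 6.98 and 5.43, and those of WT 6.22, 6.82 and 6.15. The order of the means was GTL1ox (10.60 ± 0.58), df1 (9.38 ± 0.79), DF1ox (9.16 ± 0.08), gtl1df1 (6.46 ± 0.89), WT (6.40 ± 0.37) and gtl1 (6.27 ± 1.02; SD, n = 3 each). The df1 and DF1ox arrays overlapped, and so did the arrays of the 3 low genotypes with each other, whereas the lowest GTL1ox array lay just above the highest df1 array. DF1ox had the tightest replicates of this gene and gtl1 the widest.

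**Figure D1:**
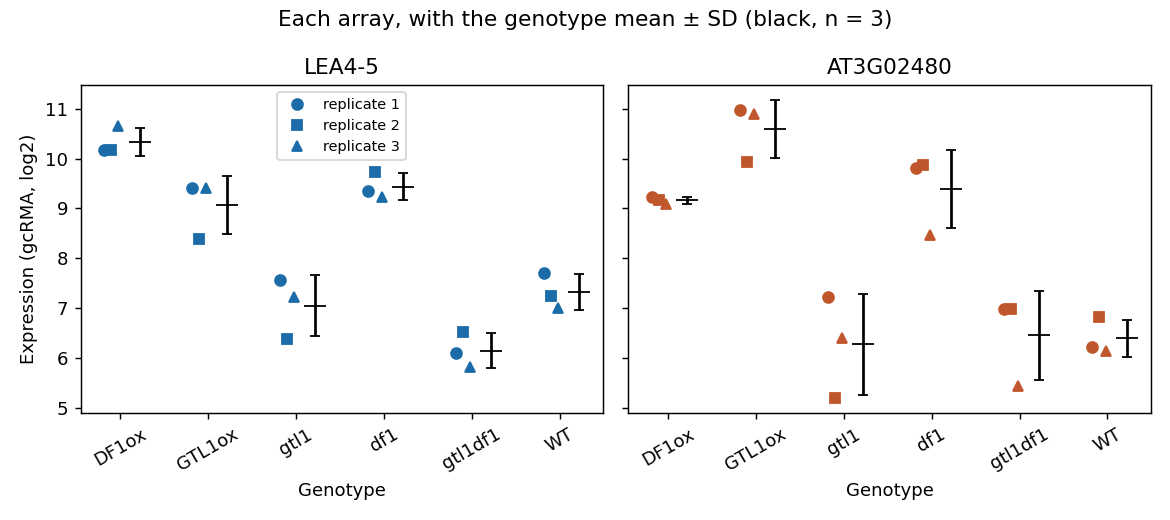
Log2 expression of LEA4-5 (left) and AT3G02480 (right) on each of the 18 arrays, by genotype; symbols give the replicate number and black bars the mean ± SD of 3 arrays. In both genes the arrays of DF1ox, GTL1ox and df1 all sit above those of gtl1, gtl1df1 and WT, and the top genotype is DF1ox for LEA4-5 and GTL1ox for AT3G02480.

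This split of 9 high and 9 low arrays was noticed in the members' values and is a description. Of all 22746 probe sets, 119 (0.523%) had it, 53 of them single-gene probe sets. The name under which the genes were chosen, as genes raised by DF1, therefore covers only a part of their pattern: their level was also high in df1, where DF1 lay below its WT level, and in GTL1ox, where DF1 was at 5.25 against 7.35 in WT.

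In DF1ox the level of LEA4-5 was 3.02 ± 0.34 log2 units above WT (SE of the fit), an 8.09-fold difference, and that of AT3G02480 was 2.76 ± 0.56 above WT, or 6.80-fold. Ordered by that difference, LEA4-5 stood at rank 3 and AT3G02480 at rank 7 of the 13513 single-gene probe sets. These ranks belong to the values that led to the choice of both genes and carry no test. Over all probe sets, 3.86% were called higher in DF1ox than in WT by limma (adjusted p under 0.05). Set against gtl1df1, in which both factors are lost, LEA4-5 was 4.19 ± 0.34 higher in DF1ox and AT3G02480 was 2.70 ± 0.56 higher, with 10.3% of all probe sets called higher in that comparison.

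DF1ox and df1, the opposite changes of DF1, had close means for AT3G02480 but not for LEA4-5. They lie on opposite sides of the BioB split, which cannot be told apart from the genotype. LEA4-5 in DF1ox exceeded df1 by 0.90 ± 0.34, with no overlap between the arrays (14.9% of all probe sets lay higher without overlap), and AT3G02480 differed by -0.22 ± 0.56 between DF1ox and df1, with overlap. For AT3G02480 the 95% interval of that difference ran from -1.43 to 0.99. Between the overexpression lines the genes went opposite ways: LEA4-5 was 1.26 ± 0.34 higher in DF1ox than in GTL1ox, and AT3G02480 differed by -1.43 ± 0.56, so it was higher in GTL1ox. Neither gene had overlapping arrays in that comparison. Over all probe sets, 11.5% had every DF1ox array above every GTL1ox array and 19.4% had the reverse, and limma called 7.42% up and 13.1% down in DF1ox.

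The comparisons that leave DF1ox out were not used to choose the genes and were tested, although those with WT or gtl1df1 share arrays with the comparisons that were used. The choice favoured genes with low values in WT and gtl1df1. It therefore favours rises over WT or gtl1df1, and falls of gtl1df1 against df1 or gtl1. The adjusted p of the members in those comparisons is optimistic. In GTL1ox both genes rose against WT. LEA4-5 rose by 1.76 ± 0.34 (3.38-fold; limma adjusted p = 0.00182) and AT3G02480 by 4.20 ± 0.56 (18.4-fold; adjusted p = 8.88e-05), which put AT3G02480 at rank 12 and LEA4-5 at rank 186 of the single-gene probe sets. This comparison moved much of the array, with 14.9% of probe sets called higher in GTL1ox. With only the GTL1ox and WT arrays in the fit, the adjusted p of LEA4-5 was 0.0572. Against gtl1df1, GTL1ox was 2.93 ± 0.34 higher for LEA4-5 (adjusted p = 2.01e-05) and 4.14 ± 0.56 higher for AT3G02480 (adjusted p = 6.68e-05), beside 17.7% of probe sets called higher.

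Loss of DF1 alone was followed by a rise of both genes. In df1 LEA4-5 rose by 2.12 ± 0.34 against WT (4.35-fold; adjusted p = 0.00134) and AT3G02480 by 2.98 ± 0.56 (7.92-fold; adjusted p = 0.00300), while 7.54% of probe sets were called higher. AT3G02480 had rank 3 and LEA4-5 rank 22 by their rise in this comparison. The BioB split cannot be told apart from the genotype here, and the 3′ minus 5′ difference of the r2 control probe sets was highest on the df1 arrays, whose part in the result was not tested. Among the mutants, which lay on the same side of the BioB split, df1 exceeded gtl1 by 2.39 ± 0.34 for LEA4-5 (limma adjusted p = 0.00157) and by 3.11 ± 0.56 for AT3G02480 (adjusted p = 0.00569), with 3.56% of probe sets called higher. Within that side, BioB was still 7.86 to 8.13 in df1 and 7.29 to 7.82 in gtl1, which cannot be told apart from the genotype. With only the arrays of the compared pair in the fit, the calls were lost for AT3G02480 in df1 against WT (adjusted p = 0.0753) and for both genes in df1 against gtl1 (adjusted p = 0.0813 for LEA4-5 and 0.149 for AT3G02480).

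Loss of GTL1 alone gave no call in either gene. LEA4-5 differed by -0.27 ± 0.34 between gtl1 and WT (95% interval -1.01 to 0.48, limma adjusted p = 0.812) and AT3G02480 by -0.13 ± 0.56 (95% interval -1.34 to 1.08, adjusted p = 1.0). With 3 arrays a genotype, a true difference anywhere within these intervals remains compatible with the data. In this comparison 11.8% of probe sets were called.

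When GTL1 was missing as well, the high level seen in df1 was absent. LEA4-5 fell by 3.29 ± 0.34 in gtl1df1 against df1 (9.78-fold, limma adjusted p = 3.84e-05) and AT3G02480 fell by 2.92 ± 0.56 (7.58-fold, adjusted p = 0.00255). Both genotypes lay on the same side of the BioB split. Within it, BioB was lower in gtl1df1 (7.06 to 7.32) than in df1 (7.86 to 8.13), which cannot be told apart from the genotype. LEA4-5 had rank 6 and AT3G02480 rank 15 by their fall, and 8.23% of probe sets were called lower. With only the gtl1df1 and df1 arrays in the fit, the adjusted p of AT3G02480 was 0.0629. Against gtl1, gtl1df1 differed by -0.90 ± 0.34 for LEA4-5 (95% interval -1.65 to -0.16, limma adjusted p = 0.177). For AT3G02480 it differed by 0.19 ± 0.56 (95% interval -1.02 to 1.40, adjusted p = 1.0), beside 4.71% of probe sets called. These intervals are not adjusted for the number of probe sets, so that of LEA4-5 leaves out 0 without a call. The genes parted in gtl1df1 against WT: LEA4-5 fell by 1.17 ± 0.34 (adjusted p = 0.0374, with 7.92% of probe sets called lower), and AT3G02480 differed by 0.06 ± 0.56 (adjusted p = 1.0). That fall of LEA4-5 lost its call without WT replicate 1 or 2 and without gtl1df1 replicate 1 or 3 (adjusted p between 0.0427 and 0.130 over the 6 fits that leave out 1 array), and after quantile normalisation (adjusted p = 0.0539).

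**Figure D2:**
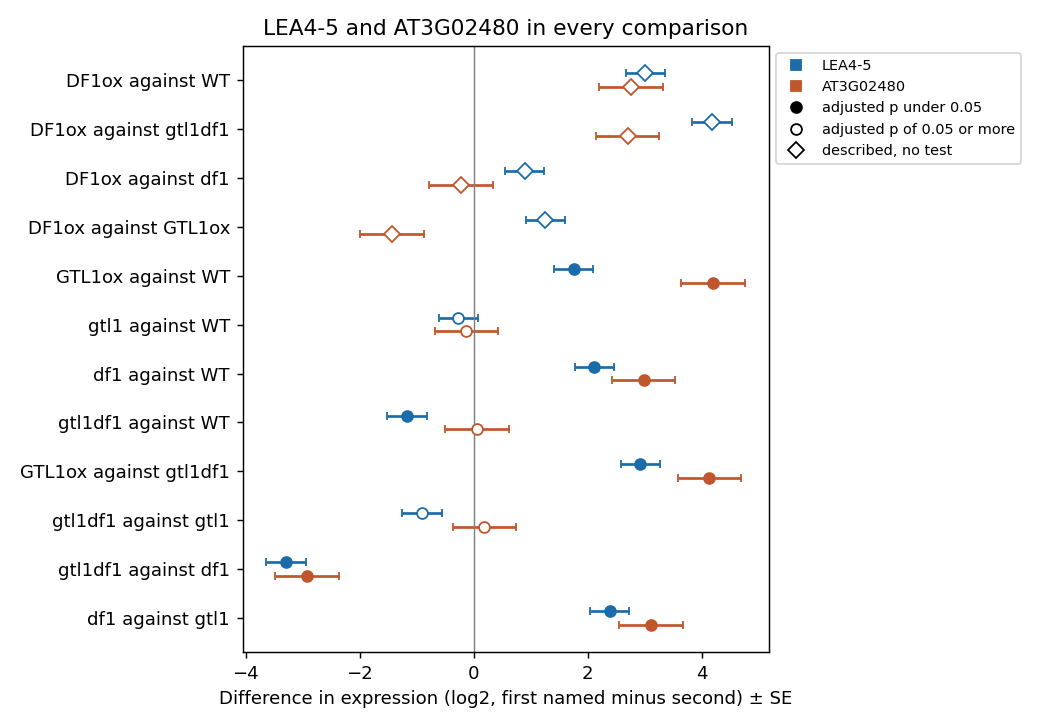
Difference in log2 expression (first named genotype minus the second, ± SE of the fit) of LEA4-5 and AT3G02480 in the 12 comparisons; filled circles are called at an adjusted p under 0.05, open circles are not, and diamonds are described without a test. Both genes lie to the right of 0 for GTL1ox and df1 against WT, and to the left for gtl1df1 against df1.

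The effect of losing DF1 was then compared between the backgrounds with and without GTL1, as the difference of the differences (gtl1df1 minus gtl1, less df1 minus WT). With DF1 lost, LEA4-5 differed by -0.90 in the gtl1 background and by 2.12 in the WT background, which makes the difference of the differences -3.02 ± 0.49 (adjusted p = 0.00145). For AT3G02480 the differences were 0.19 in the gtl1 background and 2.98 in the WT background, a difference of the differences of -2.80 ± 0.79 (adjusted p = 0.0293). This test called 15.6% of all probe sets, 6.74% with a negative difference. Choosing the genes by DF1ox against WT and gtl1df1 favoured low values in both of those genotypes. Both enter this difference with a plus sign, so the choice itself favours a negative value and the adjusted p of the members is optimistic. LEA4-5 kept its call in each of the 12 fits that left out 1 array. AT3G02480 lost it in 6 of these 12, namely without WT replicate 3, gtl1 replicate 1 or 3, df1 replicate 1 or 2, or gtl1df1 replicate 3 (adjusted p between 0.0107 and 0.0749 over the 12), and its adjusted p was 0.0863 with only the arrays of these 4 genotypes in the fit. Since WT is the sole genotype of the 4 on the other side of the BioB split, the WT term of this difference cannot be told apart from it. Nor can the df1 term be told apart from the BioB and BioC levels of df1, the highest among the mutants.

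**Figure D3:**
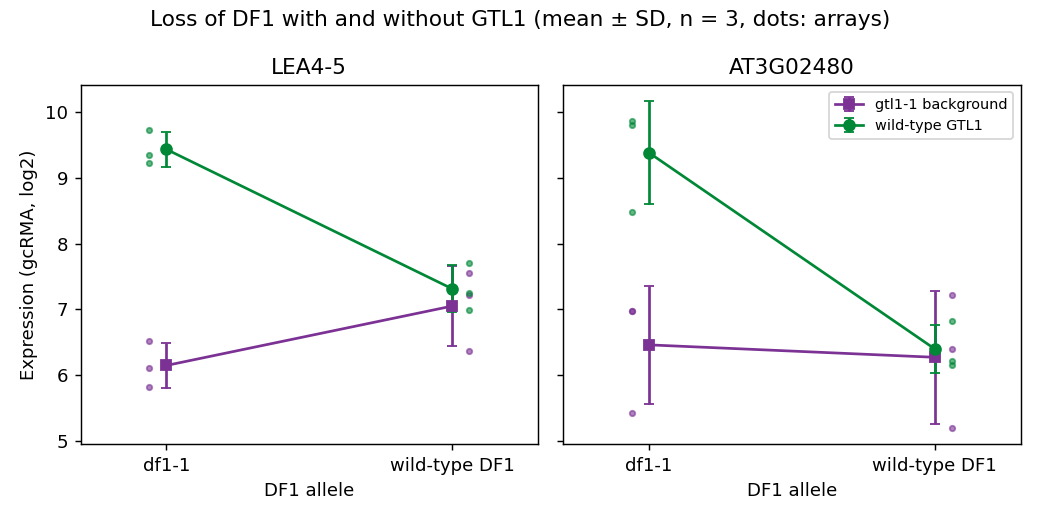
Log2 expression with the df1-1 allele and with wild-type DF1, in the gtl1-1 background (purple) and with wild-type GTL1 (green); large symbols are means ± SD of 3 arrays and dots are arrays. With wild-type GTL1 both genes are higher in the df1-1 mutant, and in the gtl1-1 background the means with and without DF1 lie between 6.15 and 7.05.

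Within a genotype the genes also moved together from array to array. The same array was the lowest for both genes in 5 of 6 genotypes, and the same array was the highest for both in 4 of 6. GTL1ox replicate 2, gtl1 replicate 2, df1 replicate 3 and gtl1df1 replicate 3 were the low arrays of their genotypes in both genes. They were also the low arrays of AT3G15670, AT4G36010 and UGT76B1, described below. AT4G36010 and UGT76B1 were picked for their correlation with AT3G02480 over these same arrays, and AT3G15670 was added after its values were seen. Their sharing of the low arrays therefore cannot tell whether this is particular to the members. The share of all probe sets with such agreement was not counted. Over the 18 arrays the Pearson correlation between LEA4-5 and AT3G02480 was 0.837, a description over arrays that share genotype and control levels.

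The rest of the LEA family did not show this pattern as a group. Of 49 other LEA genes listed, 33 had a single-gene probe set, and 18 of these stayed within 1 log2 unit of the lowest value on all 18 arrays, among them LEA4-1, a group 4 gene like LEA4-5, which read 2.22 throughout. Among the 33, DF1ox brought 3 calls above WT and 1 below it, and their median difference was 0.01, beside a median of 0 over all probe sets and 8.04% of probe sets called. The 3 were dim. AT2G42560 averaged 4.20 ± 0.55 in DF1ox and 2.82 ± 0.03 in WT, where it lay close to the lowest value, so its rise is a lower limit of 1.38 (adjusted p = 0.00166). LEA4-2, another group 4 gene, averaged 2.55 in DF1ox and 2.22 in WT (adjusted p = 0.0114), and AT2G03740 averaged 2.76 in DF1ox and 2.50 in WT (adjusted p = 0.00611), both within 1 unit of the lowest value on every array.

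AT3G15670, annotated only as a LEA family protein, came closest to the members among the family. Its arrays read 10.45, 10.08 and 10.13 in DF1ox, 9.85, 8.91 and 9.44 in GTL1ox, and 10.65, 10.60 and 9.45 in df1, against 8.60, 5.59 and 7.85 in gtl1, 8.40, 8.85 and 7.41 in gtl1df1, and 8.12, 8.69 and 7.72 in WT. It too had all 9 arrays of DF1ox, GTL1ox and df1 above the other 9. Its difference of 2.05 ± 0.65 between DF1ox and WT was not called (adjusted p = 0.0744), nor was that of 1.22 ± 0.65 between GTL1ox and WT (adjusted p = 0.232). In df1 it rose by 2.06 ± 0.65 against WT (adjusted p = 0.0455), and gtl1df1 fell by 2.02 ± 0.65 against df1 (adjusted p = 0.0497), both close to the threshold. Its difference of differences, -1.19 ± 0.92, was not called (adjusted p = 0.496).

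In df1 against WT, 4 of the 33 LEA genes were called higher and 1 lower, with a median of 0.02 and 17.6% of probe sets called in all. Beside AT3G15670 these were the dehydrin LTI30, which averaged 13.07 ± 0.46 in df1 and 10.96 ± 0.59 in WT (a rise of 2.11; adjusted p = 0.00447), AT2G23110 (a rise of 1.29; adjusted p = 0.0157) and AT2G23120 (a rise of 0.72; adjusted p = 0.00231). Dehydrins are LEA proteins with lysine-rich repeats that build up in cold and drought. LTI30 was also higher in gtl1df1 than in WT (a rise of 1.83; adjusted p = 0.0107), a comparison in which the members were low, and it averaged 12.32 ± 0.46 in gtl1, so its order of genotypes differed from theirs. In gtl1df1 against df1, 1 of the 33 was called higher and 6 lower, beside 17.4% of probe sets called, the largest fall being that of AT3G15670.

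In GTL1ox against WT, 1 of the 33 LEA genes was called higher and 4 lower, counts near or below those of the whole array, of which 14.9% was called higher and 9.65% lower (24.5% in all). The dehydrin COR47, a cold-regulated gene, averaged 12.01 ± 0.54 in GTL1ox and 13.69 ± 0.40 in WT (a fall of 1.69; adjusted p = 0.000173), and at 14.06 ± 0.15 in DF1ox it differed from WT by 0.37 without a call. In gtl1df1 COR47 fell by 1.35 against WT (adjusted p = 0.00220), and 1 of the 33 was called higher and 3 lower there, beside 14.7% of probe sets called. DI21, a drought-induced LEA gene, was lower than WT in all 5 other genotypes: it averaged 5.64 ± 0.09 in DF1ox, 4.81 ± 0.21 in GTL1ox, 5.47 ± 0.17 in gtl1, 5.42 ± 0.32 in df1 and 5.65 ± 0.44 in gtl1df1, against 7.40 ± 0.88 in WT, with adjusted p between 0.000102 and 0.00848. The 3 WT arrays of DI21 read 6.78, 7.0 and 8.41.

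**Figure D4:**
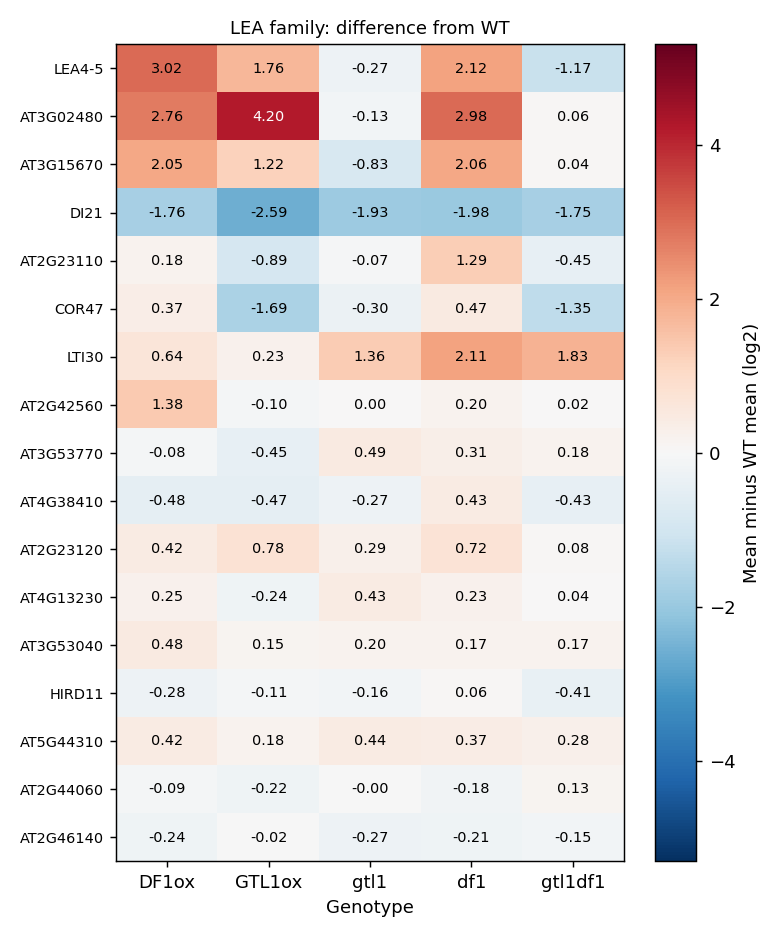
Difference of each genotype mean from the WT mean (log2, colour and number) for LEA4-5, AT3G02480 and the 15 other LEA genes that rose over 1 unit above the lowest value on at least 1 array. AT3G15670 has the members' pattern of high values in DF1ox, GTL1ox and df1, while DI21 is below WT in all 5 columns and COR47 is below WT in GTL1ox and gtl1df1.

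Genes known to respond to stress were set beside the members. ZAT10, a zinc finger repressor induced by many stresses and by wounding, averaged 8.08 ± 0.24 in DF1ox, 5.38 ± 0.72 in GTL1ox and 8.62 ± 0.10 in df1. Its means were 7.97 ± 0.33 in gtl1, 7.41 ± 0.50 in gtl1df1 and 8.01 ± 0.67 in WT. In GTL1ox, in which AT3G02480 was highest, ZAT10 fell by 2.63 against WT (limma adjusted p = 0.000197) and was called lower than in gtl1df1, by 2.02. In gtl1df1 against df1, in which both members fell, ZAT10 was also called lower, by 1.21. It was the only gene of a list of 9 heat, wound and protoplasting genes with a single-gene probe set. Among 6 further stress-named genes, added once the arrays had been looked at, DF1ox against WT gave 1 call higher and 1 lower. GTL1ox against WT gave 1 higher and 3 lower, gtl1 against WT 2 lower, df1 against WT 1 lower and gtl1df1 against WT 2 lower. In the same order, the shares of all probe sets called in either direction were 8.04%, 24.5%, 11.8%, 17.6% and 14.7%. HVA22C, named for an ABA-induced barley gene, was the lower one in DF1ox and in df1. It lay within 1 log2 unit of the lowest value on every array of every genotype but WT. In WT it averaged 3.48 ± 0.81, with arrays from 2.64 to 4.26, so its low level was not particular to DF1ox and df1. DI19, a drought-induced zinc finger gene, was higher in DF1ox than in WT by 0.34 (adjusted p = 0.0449). DI19 averaged 10.15 ± 0.08 in DF1ox, 10.24 ± 0.07 in GTL1ox and 9.85 ± 0.17 in df1. Its means were 9.30 ± 0.13 in gtl1, 9.13 ± 0.10 in gtl1df1 and 9.82 ± 0.13 in WT. The 6 genes gave 2 calls lower in gtl1df1 against df1 (8.23% of all probe sets lower) and 1 higher in df1 against gtl1 (3.56% higher). GTL1ox against gtl1df1 gave 1 higher (17.7% higher) and 1 lower. ABA signalling genes, other ABA targets, seed maturation genes and the markers of non-hair epidermis, ground tissue, stele and root cap were not analysed here. Of the 3 root hair markers EXPA7, EXPA18 and XTH26, a cell wall enzyme gene of growing hairs, none was called higher in any genotype than in WT. Those called lower numbered 1 in DF1ox, 2 in GTL1ox, 2 in df1 and 3 in gtl1df1. In these comparisons 8.04%, 24.5%, 17.6% and 14.7% of all probe sets were called in either direction. The share called lower was 9.65% in GTL1ox and 7.92% in gtl1df1. XTH26 averaged 11.86 ± 0.12 in DF1ox, 9.47 ± 0.19 in GTL1ox, 10.68 ± 0.38 in df1 and 10.89 ± 0.17 in gtl1df1, against 11.72 ± 0.32 in WT. EXPA18 averaged 14.01 ± 0.06 in DF1ox, 12.83 ± 0.08 in GTL1ox, 14.06 ± 0.07 in df1 and 13.95 ± 0.07 in gtl1df1, against 14.28 ± 0.06 in WT. Their part in the members' values was not tested.

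The genes with the pattern most like each member were found by Pearson correlation of log2 values over the 18 arrays, among 2791 other single-gene probe sets whose genotype means spanned at least 1 unit. They are a description, since the genotype pattern itself sets the correlation. Closest to LEA4-5 were AT3G14595 (r = 0.952), AT1G21000 (0.928), AT2G27830 (0.917), AT1G66460 (0.912) and PUB19 (0.900), a U-box ubiquitin ligase known to act in ABA and drought responses. PUB19 averaged 8.52 ± 0.16 in DF1ox, 8.21 ± 0.17 in GTL1ox and 9.0 ± 0.26 in df1, against 7.43 ± 0.37 in gtl1, 6.91 ± 0.63 in gtl1df1 and 7.50 ± 0.15 in WT. AT3G14595 had a narrower range, with means between 8.77 in gtl1df1 and 10.59 in DF1ox.

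Closest to AT3G02480 were AT4G36010 (r = 0.978), a thaumatin family gene, UGT76B1 (0.978), a glucosyltransferase gene of pathogen defence, AT5G65300 (0.954), AT2G42270 (0.935) and AT4G36500 (0.925). AT4G36010 averaged 8.16 ± 0.23 in DF1ox, 10.59 ± 0.67 in GTL1ox and 8.38 ± 0.98 in df1, against 5.22 ± 1.08 in gtl1, 5.51 ± 1.76 in gtl1df1 and 5.36 ± 0.56 in WT. UGT76B1 averaged 8.97 ± 0.23 in DF1ox, 10.07 ± 0.47 in GTL1ox and 9.27 ± 1.47 in df1, against 6.26 ± 0.84 in gtl1, 6.67 ± 1.22 in gtl1df1 and 6.24 ± 0.26 in WT. Like AT3G02480, both had their highest mean in GTL1ox. AT3G02480 stood at rank 29 among the genes most like LEA4-5, and LEA4-5 at rank 81 among those most like AT3G02480.

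**Figure D5:**
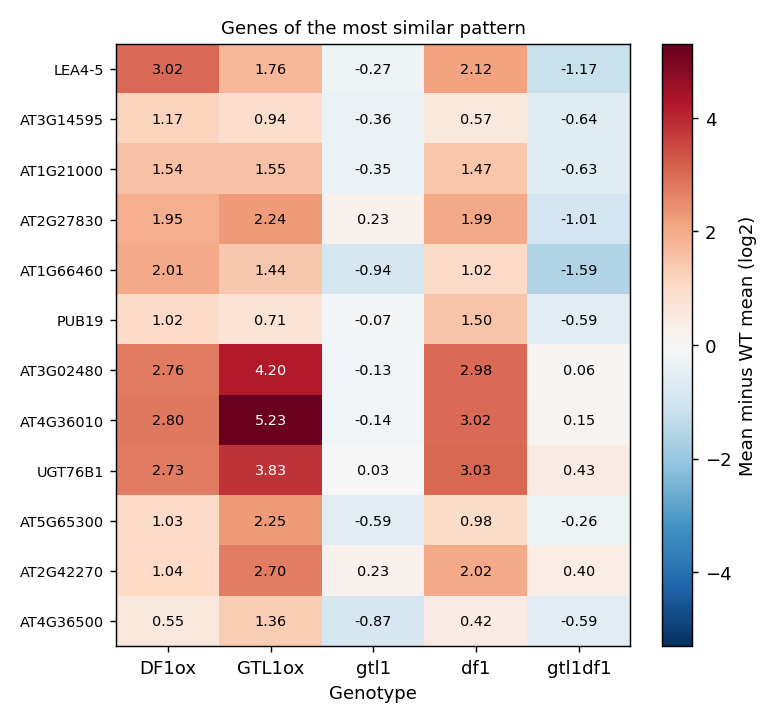
Difference of each genotype mean from the WT mean (log2, colour and number) for LEA4-5 and its 5 most correlated genes, then AT3G02480 and its 5. Every gene shown is above WT in DF1ox, GTL1ox and df1, and the largest difference is that of AT4G36010 in GTL1ox, at 5.23.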

How the data were processed

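The authors hybridised RNA of GFP-sorted root protoplasts to ATH1 arrays and deposited a table of log2 expression per probe set and array, background-corrected and normalised with GCRMA (version and settings not given in the sources used here). Dim probe sets pile up at the bottom of such a table: 27.9% of the deposited log2 values lay within 0.01 of the lowest, so changes of dim genes are understated. Array medians were 3.00 to 3.22, and the number of arrays, 3 a genotype, limits the precision. The labels name a two-cycle labelling for 6 arrays by running numbers that the sample labels do not carry, and a single cycle for the rest. Which genotypes those 6 arrays belong to could therefore not be told, and the part of the labelling in any comparison was not tested.

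Gene names came from the annotation of the platform: 13513 had 1 gene, 503 several and 8730 none here, and 64 control probe sets were left out. No column was without a sample. The deposited values were used unchanged in limma 3.58.1 (R 4.3.3), with 1 mean per genotype over all 18 arrays, moderated two-sided tests and Benjamini-Hochberg adjustment over 22746 probe sets, called under 0.05. The fit recovered changes planted in DF1ox in simulated data. Those data had independent normal noise, without the pile-up at the lowest value or the BioB split, so they do not check the calls under these conditions. Python 3.11.15, pandas 2.3.3 and matplotlib 3.10.9 made the summaries and figures. Differences are given with the fit's SE and its 95% interval; means are given with the SD.

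The members and gene lists were chosen with earlier results of these data known. Named were both members throughout, per list up to 4 called genes of largest change, all LEA genes called in DF1ox against WT, the 5 genes most correlated with each member, and DF1; AT3G15670 under all comparisons, LEA4-1 and the individual DI21 values were added after their values were seen. Dim genes at the lowest value in the lower genotype give lower limits. In gtl1df1 against df1, same-numbered arrays deviated together (correlations 0.101, 0.208 and 0.279). All 3 correlations were also positive in GTL1ox against WT (0.0677, 0.0995 and 0.131) and in DF1ox against df1 (0.115, 0.00848 and 0.0517). Such correlations do not show that arrays were prepared as pairs, and the main fit paired none. The alternatives were quantile normalisation, a fit of only the arrays compared, probe sets above the median mean, trended robust moderation, the methods' 2-fold change with unadjusted p under 0.05, the replicate number as a block, and leaving out each array. Those of the difference of differences other than quantile normalisation and the 2-fold rule were chosen after seeing the data.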

Additional observations from a re-analysis of the deposited data

Results flagged for a closer look

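The effect of losing DF1 differed between the gtl1 and the WT background in both members, by limma's test of the difference itself (change in the gtl1 background minus change in the WT background, log2). LEA4-5 gave -3.02 ± 0.49 (adjusted p = 0.00145) and AT3G02480 gave -2.80 ± 0.79 (adjusted p = 0.0293), a call lost in 6 of the 12 fits that left out 1 array (adjusted p up to 0.0749) and with only the arrays of the 4 genotypes (adjusted p = 0.0863). Of the 33 other LEA genes 5 were called, a share near the 15.6% of all probe sets, so the count says nothing particular to the family. COR47 gave -1.52 ± 0.34 (adjusted p = 0.00939), with a change of -1.05 in the gtl1 background and 0.47 in the WT background. AT2G23110 gave -1.67 ± 0.46 (adjusted p = 0.0269) and AT2G23120 gave -0.93 ± 0.18 (adjusted p = 0.00425), both also higher in df1 than in WT. AT2G44060 gave 0.32 ± 0.08 (adjusted p = 0.0206). DI21 gave 2.15 ± 0.49 (adjusted p = 0.0104), with means between 5.42 and 5.65 in gtl1, df1 and gtl1df1, against 7.40 in WT. The WT arrays lay on the other side of the BioB control split from the mutants, so the WT term cannot be told apart from that split. The df1 term likewise cannot be told apart from the BioB and BioC levels of df1, the highest among the mutants. For the members, the choice by DF1ox against WT and gtl1df1 also favours a negative difference, so their adjusted p is optimistic.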

How the results depend on the processing

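Trended moderation, the filter on dim probe sets and the replicate block changed no call of either member in its 9 tested comparisons. The 4 described comparisons of each member have no call to change. With the block, gtl1df1 against df1 was -3.29 for LEA4-5 (adjusted p = 0.000155) and -2.92 for AT3G02480 (adjusted p = 0.00332), and no count of calls moved by over 1.5 times. With only the arrays compared, 7 calls were lost with values unchanged: for LEA4-5, 1.76 in GTL1ox against WT, -1.17 in gtl1df1 against WT (adjusted p = 0.115) and 2.39 in df1 against gtl1, and for AT3G02480, 2.98 in df1 against WT, -2.92 in gtl1df1 against df1, 3.11 in df1 against gtl1 and -2.80 for the difference of differences. That fit has fewer arrays to estimate the spread from. After quantile normalisation LEA4-5 in gtl1df1 against WT was -1.11, without a call, and AT3G02480 in gtl1 against WT, not called either way, turned to 0.0023.

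Leaving out 1 array at a time, LEA4-5 in gtl1df1 against WT ran between -1.35 and -0.97 and AT3G02480's difference of differences between -3.33 and -2.28. Uncalled differences changed sign for LEA4-5 in gtl1 against WT (-0.52 to 0.073) and for AT3G02480 in gtl1 against WT (-0.60 to 0.41), gtl1df1 against WT (-0.20 to 0.58) and gtl1df1 against gtl1 (-0.35 to 0.70), and the untested one of AT3G02480 in DF1ox against df1 (-0.67 to 0.021). Called probe sets numbered 2636 to 4226 in df1 against WT (2636 without df1 replicate 2), 573 to 1048 in gtl1df1 against gtl1 (573 without gtl1 replicate 2) and 777 to 1585 in df1 against gtl1 (777 without gtl1 replicate 2, 856 without df1 replicate 2).

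Over all probe sets, the fit of only the arrays compared called 78 in place of 1828 in DF1ox against WT, 2164 in place of 3734 in DF1ox against df1, 2888 in place of 5574 in GTL1ox against WT, 125 in place of 2678 in gtl1 against WT, 333 in place of 3995 in df1 against WT, 990 in place of 3342 in gtl1df1 against WT, 358 in place of 1071 in gtl1df1 against gtl1 and 115 in place of 1538 in df1 against gtl1. The filter on dim probe sets called 1615 in gtl1df1 against gtl1. The methods' threshold called 872 in DF1ox against WT, 1600 in DF1ox against gtl1df1, 1045 in DF1ox against df1, 1533 in DF1ox against GTL1ox, 2263 in GTL1ox against WT, 882 in gtl1 against WT, 1382 in df1 against WT, 1156 in gtl1df1 against WT, 2801 in GTL1ox against gtl1df1, 459 in gtl1df1 against gtl1, 1378 in gtl1df1 against df1, 582 in df1 against gtl1 and 2180 for the difference of differences. Quantile normalisation moved the split of calls in DF1ox against WT to 1121 higher and 774 lower (878 and 950 as deposited) and in gtl1 against WT to 1579 and 1311 (1191 and 1487). The cause was not tested.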
